A study of Mus musculus with 15 samples.

Results

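The genes described here are 9 long noncoding RNA genes that host small nucleolar RNAs (snoRNAs) in their introns: Gas5, Snhg1, Snhg3, Snhg6, Snhg8, Snhg11, Snhg12, Snhg14 and Snhg20. They were taken by name, without regard to measured values, from the 25080 genes listed in each table. All 9 reached 1 TPM (a length-corrected share of transcripts) in 3 or more libraries, the filter that kept 13471 genes for testing. RefSeq types all 9 as long noncoding, and the GENCODE M21 annotation of GRCm38 places between 1 and 208 snoRNA genes (for Snhg20, a related scaRNA gene) inside each of them on the same strand. GENCODE types Snhg11 as protein coding, so the label holds for that gene in one annotation and not in the other.

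The thalamus of male mice aged 2 to 4 months was dissected after 3 days of saline habituation and 5 days of intraperitoneal cocaine at 20 mg/kg or of saline. In Maged1 cKO mice, a Vglut2-Cre driver inactivates floxed Maged1 in glutamatergic Vglut2 neurons, so other thalamic cells keep the gene. Control mice carry titles reading Maged1 WT and, for most, a tag reading Maged1 Loxp. By title, 4 libraries came from each of the control saline, control cocaine and cKO saline groups and 2 from cKO cocaine, 14 in all. Another cKO cocaine sample, the third by title, was not analysed here. The study's methods count more cocaine than saline samples of this kind, and the titles count the reverse, which these sources do not settle. RNA depleted of ribosomal RNA was sequenced with strand information.

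The labels need care. For 4 saline libraries (control saline replicates 3 and 4, and cKO saline replicates 1 and 2) title and genotype tag disagree, and groups follow the titles. Maged1, the targeted gene, ranged from 150 to 167 scaled TPM among control saline libraries and from 64.6 to 77.4 among cKO saline libraries, as the titles say. Libraries labelled control cocaine held only 58.5 to 87.7, whereas the pair labelled cKO cocaine held 154 and 174, which goes against their labels. Comparisons within a genotype label therefore rest on labels that Maged1 contradicts. The contrast averaged over both genotype labels has the same value if the cocaine groups carried each other's label, and it is given for each member. In composition, the short RNAs Gm20594 and Bc1 also separated the treatments: Gm20594 took 2.29% to 4.38% of the listed TPM in saline libraries and 10.4% to 17.1% in cocaine libraries, and Bc1 took 3.6% to 5% and 10.3% to 15.5%. Their part in the results was not tested.

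A snoRNA host gene is transcribed by RNA polymerase II, its exons are spliced together, and the excised introns are trimmed into snoRNAs. C/D box snoRNAs guide methylation of ribosomal RNA and bind fibrillarin. H/ACA box snoRNAs guide pseudouridylation with dyskerin. The spliced host RNA itself is often a short-lived transcript: Gas5 and several relatives begin with a terminal oligopyrimidine (TOP) tract like that of ribosomal protein mRNAs, contain short open reading frames and are degraded by nonsense-mediated decay when they are translated. Among the 9 genes, Gas5, Snhg1, Snhg6 and Snhg14 host C/D box snoRNAs, Snhg3, Snhg8 and Snhg11 host H/ACA box snoRNAs, Snhg12 hosts both kinds, and Snhg20 holds a scaRNA, a relative that works in Cajal bodies.

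The annotated start sites were read for a TOP-like run of letters. The sequences are printed because members that moved with cocaine are found both with and without such a run. RefSeq promoters on GRCm38.p6 were found for 8 of the 9 genes, and for Gas5 at 2 start sites. Each line below is 80 bases centred on the annotated start, in the direction of transcription. Capitals mark a C followed by at least 4 bases that are each C or T, read on the gene's own strand, whose first base lies within 2 bases of the start.
Gas5, second start, chr1:161035126-161035205, plus strand: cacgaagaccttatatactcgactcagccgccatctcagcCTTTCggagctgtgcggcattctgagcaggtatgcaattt
Snhg12, chr4:132308638-132308717, plus strand: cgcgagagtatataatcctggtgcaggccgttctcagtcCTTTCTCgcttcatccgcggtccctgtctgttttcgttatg
Snhg8, chr3:123508297-123508376, minus strand: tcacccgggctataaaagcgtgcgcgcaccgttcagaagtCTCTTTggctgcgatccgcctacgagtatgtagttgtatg
Snhg3, chr4:132353647-132353726, minus strand: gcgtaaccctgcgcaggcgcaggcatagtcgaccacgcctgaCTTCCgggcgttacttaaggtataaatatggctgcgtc
Snhg20, chr11:117076743-117076822, plus strand: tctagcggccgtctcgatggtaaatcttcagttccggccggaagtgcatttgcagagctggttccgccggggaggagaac
A run of this kind was present in Gas5, Snhg3, Snhg8 and Snhg12, 4 of 8 genes, and absent from the windows of Snhg1, Snhg11, Snhg14 and Snhg20. Gas5 counts through its second start, since the first, upstream start has no run. Such a run was found at a start of 10.6% of the 27025 genes with a promoter entry and of 34.4% of 64 ribosomal protein genes. With up to 10 bases allowed between start and run, it was still 4 of 8 members, against 34.4% of all genes and 62.5% of the ribosomal protein genes. The distance was chosen with the sequences in view, and a match describes letters only. A missing match does not show that a gene lacks a TOP tract, since most ribosomal protein genes had none within 2 bases. Snhg6 has no entry in this table.

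By length-corrected level, the 9 genes fell into an order with partly overlapping ranges in control saline thalamus. Snhg11, a brain-enriched host of H/ACA snoRNAs, was highest at 185 ± 21.1 scaled TPM (SD, n = 4, here and below scaled between libraries by TMM, the trimmed mean of M values). Gas5 followed at 69.7 ± 8.63 and Snhg14, the long transcript of the Prader-Willi region that carries the Snord115 and Snord116 clusters, at 67.0 ± 4.72. Ranges of these last genes overlapped, so their order is not settled by these libraries. Snhg20 stood at 17.4 ± 1.03, above Snhg6 at 12.6 ± 1.20 and Snhg12 at 12 ± 1.23, which overlapped each other. Snhg3 at 7.89 ± 1.48, Snhg8 at 6.96 ± 0.308 and Snhg1 at 6.21 ± 0.541 were lowest, each overlapping its neighbour in this order. Snhg11 was above Gas5, Snhg14 above Snhg20 and Snhg12 above Snhg3 in all 14 libraries. Snhg20 was above Snhg6 in only 8 of the 14.

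**Figure D1:**
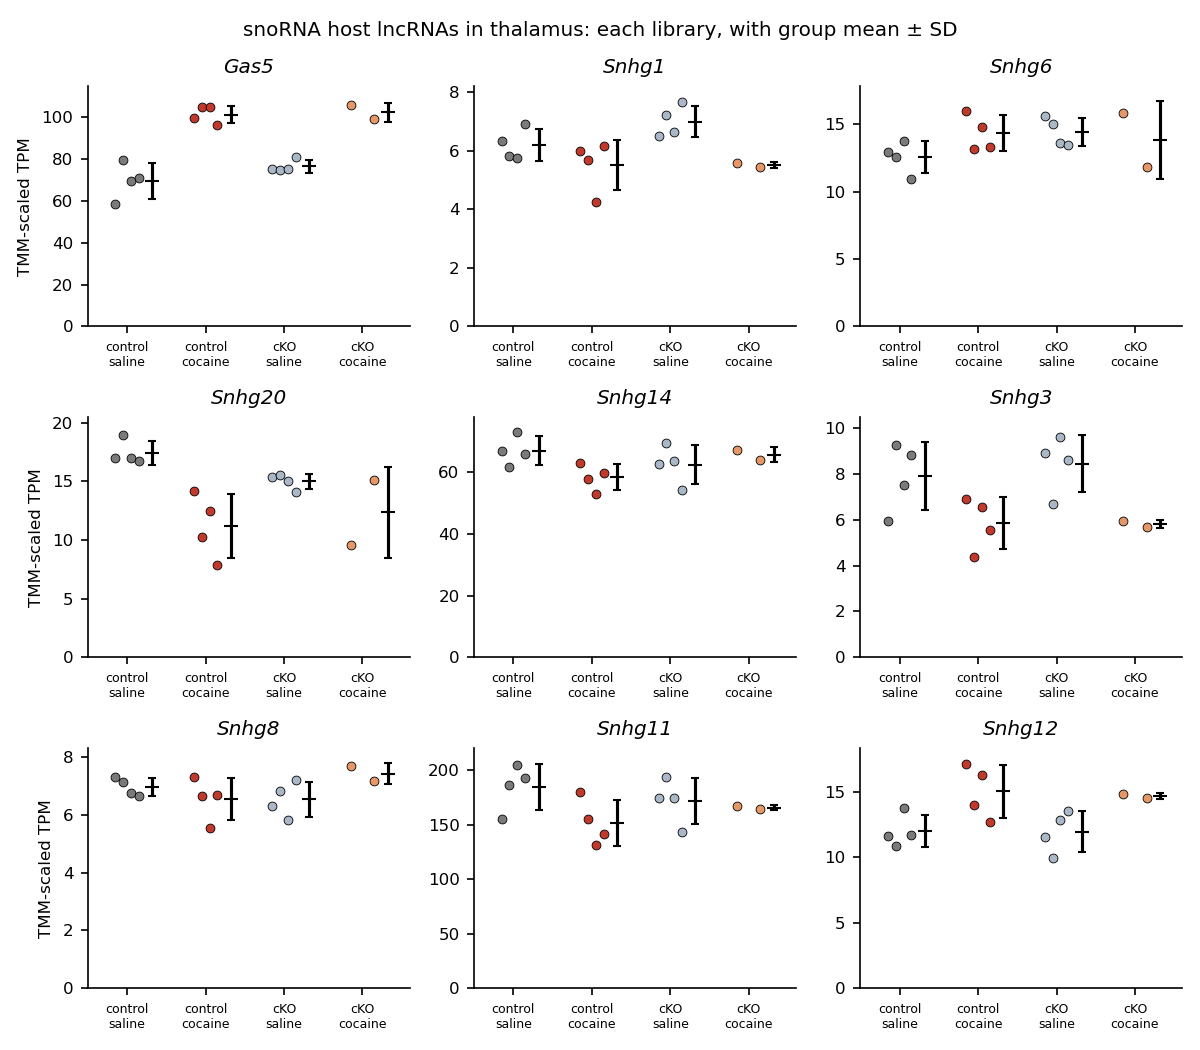
TMM-scaled TPM (y axis, from 0) of each host gene in each library (points) by group (x axis), with the group mean and SD beside the points. Gas5 is the only gene in which all 6 cocaine libraries (96.3 to 106) sit above all 8 saline libraries (58.7 to 81.2), while Snhg20 is low and spread in the cocaine groups.

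Repeated cocaine against saline was compared within each genotype label and as their average. Averaged over both labels, Gas5 (1.40-fold) and Snhg12 (1.23-fold) rose, and Snhg20 (0.721-fold), Snhg3 (0.732-fold) and Snhg1 (0.846-fold) fell, while Snhg6, Snhg8, Snhg11 and Snhg14 did not pass the test. The test was limma over all 13471 genes, with a Benjamini-Hochberg adjusted p under 0.05 as the threshold. With only the 10 libraries whose titles and tags agree, Gas5 was the 1 member still called on average (adjusted p = 0.00748, limma). Snhg1, Snhg3, Snhg12 and Snhg20 were not (adjusted p = 0.133, 0.0573, 0.0535 and 0.0949, limma). Over all genes 17.3% were called with these libraries, against 33.1% in the full set. They include all 6 cocaine libraries, whose labels Maged1 contradicts, and leave out 4 saline libraries in which Maged1 follows the titles. In the full set 17.8% of all genes rose and 15.3% fell, against 2 and 3 of the 9 members. Counts out of 9 are too small to set apart from these shares. The members' median log2 fold change was -0.06, against 0.008 for all genes tested.

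Within the control label, Gas5 and Snhg12 rose and Snhg20 fell, against a background of 14.2% of genes higher and 10.2% lower. Within the cKO label, with 2 cocaine libraries, Gas5 rose and no other member passed, against 10.2% higher and 9.96% lower. Both comparisons have their own saline controls. Where 2 of the 4 groups are said below not to overlap, the share of all genes that do so was not counted. The smallest two-sided p of an exact permutation test is 0.0286 for 4 against 4 libraries and 0.133 for 2 against 4. The medians of the 9 genes were -0.17 and -0.04. With the 10 libraries, 7.62% of all genes were called in control and 5.61% in cKO. Gas5 alone was called in control (adjusted p = 0.0238, limma), and Snhg12 and Snhg20 were not (adjusted p = 0.0627 and 0.0985, limma). The Gas5 call in cKO was lost (adjusted p = 0.098, limma). In bulk tissue, fewer cells of a type and less RNA per cell cannot be told apart, which applies to every level given here.

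**Figure D2:**
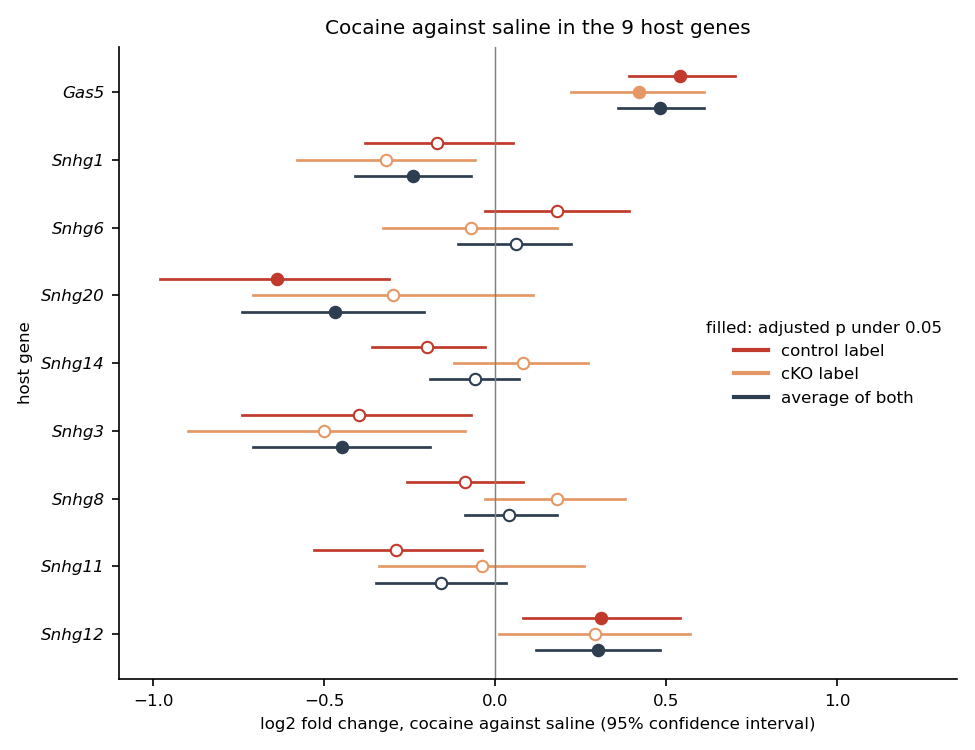
Log2 fold change of cocaine against saline (x axis) with its 95% confidence interval for each host gene (y axis), in the control label, in the cKO label and averaged over both, where filled points passed an adjusted p of 0.05 in limma. Gas5 (0.54, 0.42 and 0.48) is filled in all 3, and on average Snhg20 (-0.47) and Snhg3 (-0.45) lie furthest to the left.

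Gas5 (growth arrest specific 5; ENSMUSG00000053332.13, chr1:161034422-161038539, plus strand) has up to 12 exons in an annotated transcript, holds 10 snoRNA genes, and its spliced RNA is known to accumulate when cells stop growing and to bind the glucocorticoid receptor. It measured 58.7, 79.8, 69.5 and 71.0 scaled TPM in control saline and 75.5, 74.7, 75.2 and 81.2 in cKO saline. Cocaine gave 99.6, 105, 105 and 96.3 under the control label and 106 and 99.2 under the cKO label. Every cocaine library was above every saline library, and the spread within cocaine groups was small. All 6 cocaine above all 8 saline libraries held for 5.95% of all genes tested and, of the members, for Gas5, and the reverse held for 5% of genes and for 0 members. The log2 fold change was 0.54 in the control label (SE 0.07, adjusted p = 0.000408, limma), 0.42 in the cKO label (SE 0.09, adjusted p = 0.00692, limma) and 0.48 on average (SE 0.06, adjusted p = 7.47e-05, limma).

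The rise of Gas5 is relative to the other genes of a library. Without scaling between libraries its deposited TPM was 62.7 to 91.4 in saline and 80.1 to 99.3 in cocaine libraries, which overlap, and the averaged log2 change was 0.10 (adjusted p = 0.218, limma). On that scale the median gene itself moved by -0.34, and 120 genes were higher and 10661 lower. With the other 2 scalings Gas5 passed in all 3 contrasts. The call in the cKO label was lost without cKO cocaine replicate 1, at an adjusted p of 0.057 in limma.

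Snhg1 (ENSMUSG00000108414.1, chr19:8723475-8726443, plus strand) hosts 8 annotated snoRNAs, among them Snord22. It measured 6.32, 5.83, 5.76 and 6.93 scaled TPM in control saline and 6.51, 7.21, 6.64 and 7.66 in cKO saline. With cocaine, the control label gave 5.98, 5.68, 4.25 and 6.17 and the cKO label 5.60 and 5.44. The 2 cKO cocaine libraries were below all 4 cKO saline libraries, and the control groups overlapped. The averaged log2 fold change was -0.24 (SE 0.08, adjusted p = 0.0299, limma), and neither label passed alone (adjusted p = 0.24 and 0.0806, limma). The averaged call was lost without control saline replicate 4, either cKO cocaine library, or cKO saline replicate 2 or 4, with an adjusted p of up to 0.108 in limma.

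Snhg6 (ENSMUSG00000098234.7, chr1:9941959-9944118, minus strand) hosts 1 snoRNA, Snord87, and overlaps Mcmdc2 on the opposite strand. It measured 12.9, 12.6, 13.8 and 10.9 scaled TPM in control saline, 15.6, 15.03, 13.6 and 13.5 in cKO saline, 16.0, 13.2, 14.8 and 13.3 with cocaine under the control label, and 15.9 and 11.8 with cocaine under the cKO label. All groups overlapped across treatments. The averaged log2 fold change was 0.06 (95% confidence interval -0.11 to 0.22, adjusted p = 0.614, limma).

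Snhg20 (ENSMUSG00000086859.4, chr11:117076008-117078955, plus strand) holds 1 annotated scaRNA (Gm26083), which has no row in the tables, overlaps Mir6516 on the same strand and has up to 3 exons. It measured 17.0, 19.0, 17.0 and 16.8 scaled TPM in control saline and 15.4, 15.5, 15.1 and 14.1 in cKO saline. Cocaine-treated thalami read 14.2, 10.3, 12.5 and 7.88 under the control label and 9.61 and 15.1 under the cKO label. All 4 control cocaine libraries were below all control saline libraries, and the cKO groups overlapped, with the second cKO cocaine library among its saline libraries. The coefficient of variation was 24.3% over the 6 cocaine libraries and 9.41% over the 8 saline libraries.

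The log2 fold change of Snhg20 was -0.64 in the control label (SE 0.16, adjusted p = 0.0102, limma), the largest fall among the 9 genes in that contrast, and it passed with each library left out in turn. In the cKO label it was -0.30 (SE 0.19, adjusted p = 0.29, limma). The averaged fall of -0.47 (SE 0.12, adjusted p = 0.0106, limma) was not called without cKO cocaine replicate 1, where the adjusted p was 0.0793 in limma. The difference between the labels, tested as an interaction in limma, was 0.34 with a 95% confidence interval from -0.19 to 0.88 (adjusted p = 0.502).

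Snhg14 (ENSMUSG00000100826.6, chr7:59307924-59975759, minus strand) is the longest of these genes, with 667836 bases in GENCODE, up to 17 exons and 208 annotated snoRNA genes. It measured 66.8, 61.8, 73.2 and 66.1 scaled TPM in control saline and 62.7, 69.4, 63.6 and 54.3 in cKO saline. Cocaine gave 63.1, 57.7, 53.1 and 59.7 under the control label and 67.4 and 64.0 under the cKO label. Control cocaine lay low and overlapped control saline in 1 library, and the cKO groups overlapped. The log2 fold change was -0.20 in the control label (SE 0.07, adjusted p = 0.0743, limma), 0.08 in the cKO label (SE 0.09, adjusted p = 0.607, limma) and -0.06 on average (95% confidence interval -0.19 to 0.07). In control it passed without control cocaine replicate 1 and with quantile normalization (adjusted p = 0.018, limma).

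Snhg14 runs antisense through Ube3a, the imprinted ubiquitin ligase gene whose paternal copy it is known to silence in neurons. Ube3a had 16.7 to 18.6 scaled TPM in the 8 saline libraries and 12.7 to 14.8 in the 6 cocaine libraries, which did not overlap. It fell in both labels and on average, by a log2 fold change of -0.33 (SE 0.04, adjusted p = 5.93e-05, limma), while Snhg14 did not pass in any contrast. Of 7 tested imprinted neighbours of Snhg14, Ube3a and Ndn fell in the control label. In the cKO label and on average Ube3a fell and Ipw rose. Over all genes 10.2% fell in control, 9.96% fell and 10.2% rose in cKO, and 15.3% fell and 17.8% rose on average. Ipw was listed at 0 in 2 libraries and reached 4.06 scaled TPM at most. Snrpn, which shares the region's promoter, had 150 to 198 scaled TPM in saline and 156 to 178 in cocaine libraries.

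Snhg3 (ENSMUSG00000085241.7, chr4:132348014-132353686, minus strand) hosts the H/ACA snoRNAs of the Snora73 family and shares its strand and annotated span with Rcc1, a chromatin-bound exchange factor for Ran. It measured 5.96, 9.25, 7.52 and 8.83 scaled TPM in control saline and 8.89, 6.67, 9.63 and 8.62 in cKO saline. With cocaine, the control label gave 6.92, 4.36, 6.55 and 5.56 and the cKO label 5.93 and 5.67. Cocaine libraries were low in both labels. The cKO groups, 2 against 4 libraries, did not overlap, and the control groups overlapped through the first control saline library. The averaged log2 fold change was -0.45 (SE 0.12, adjusted p = 0.0127, limma), against -0.40 and -0.50 within the labels, which did not pass (adjusted p = 0.0734 and 0.0804, limma). Without cKO cocaine replicate 2 the averaged adjusted p was 0.0586 in limma.

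Reads of Snhg3 and Rcc1 may be shared where their transcripts coincide. Rcc1 gave log2 fold changes of 0.15 in the control label (adjusted p = 0.208, limma) and -0.36 in the cKO label (adjusted p = 0.0245, limma), and its average was -0.11 (adjusted p = 0.235, limma).

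Snhg8 (ENSMUSG00000104960.1, chr3:123507552-123508404, minus strand), the shortest of these genes at 853 bases, hosts Snora24. It measured 7.31, 7.13, 6.76 and 6.66 scaled TPM in control saline, 6.29, 6.82, 5.82 and 7.18 in cKO saline, 7.29, 6.63, 5.54 and 6.69 with cocaine under the control label, and 7.69 and 7.16 with cocaine under the cKO label. The groups overlapped in both labels. The averaged log2 fold change was 0.04 (95% confidence interval -0.09 to 0.18, adjusted p = 0.632, limma).

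Snhg11 (ENSMUSG00000044349.15, chr2:158375638-158386145, plus strand) holds 2 annotated snoRNA genes, neither of which has a row in the tables. It measured 155, 187, 205 and 192 scaled TPM in control saline and 174, 194, 174 and 143 in cKO saline. Cocaine-treated thalami read 180, 155, 131 and 141 under the control label and 167 and 164 under the cKO label. The control cocaine libraries tended to be low, with 1 library among the saline values, and the cKO groups overlapped. The log2 fold change was -0.29 in the control label (SE 0.11, adjusted p = 0.0807, limma) and -0.04 in the cKO label (adjusted p = 0.868, limma), with -0.16 on average (adjusted p = 0.179, limma). In control it passed without control cocaine replicate 1 or control saline replicate 1 (lowest adjusted p = 0.0229, limma).

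Snhg12 (ENSMUSG00000086290.9, chr4:132308623-132311024, plus strand) hosts 5 annotated snoRNA genes of both kinds. It measured 11.7, 10.9, 13.7 and 11.7 scaled TPM in control saline and 11.5, 9.99, 12.9 and 13.5 in cKO saline. Cocaine gave 17.1, 14.0, 16.3 and 12.7 under the control label and 14.9 and 14.5 under the cKO label. Cocaine libraries were high, and only the fourth control cocaine library fell among the saline values. The averaged log2 fold change was 0.30 (SE 0.08, adjusted p = 0.0145, limma).

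Within the control label the rise of Snhg12 was 0.31 (SE 0.11, adjusted p = 0.0485, limma), just inside the threshold. It was not called with median-of-ratios or quantile scaling (adjusted p = 0.0577 and 0.0858, limma), without the filter on low values, or in 6 of 8 fits that left out 1 library. In the cKO label it was 0.29 (adjusted p = 0.131, limma). The averaged call was lost without either cKO cocaine library, with an adjusted p of up to 0.0512 in limma. On the TPM as deposited the averaged value turned to -0.07.

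**Figure D3:**
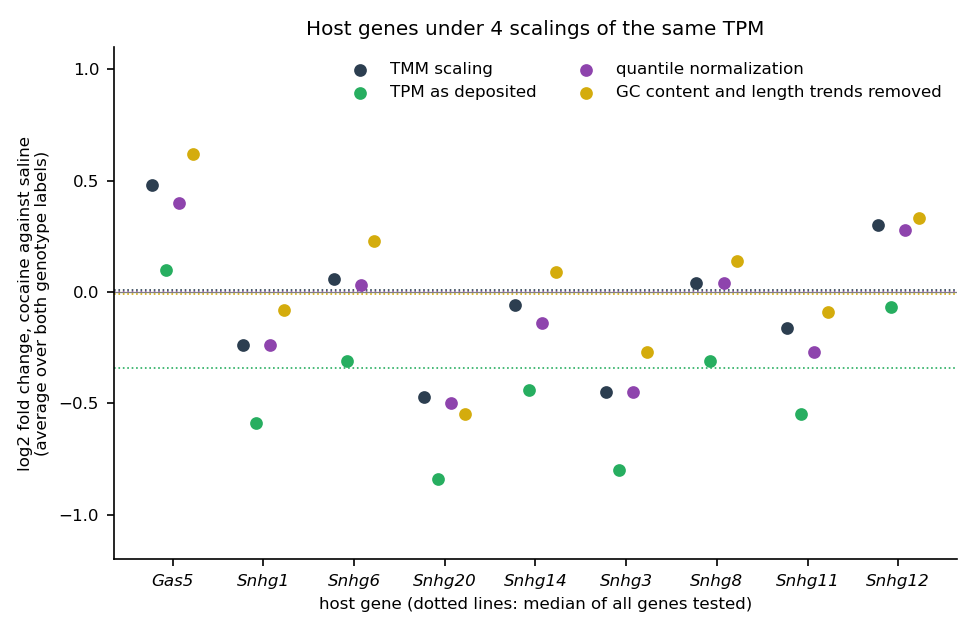
Averaged log2 fold change of cocaine against saline (y axis) for each host gene (x axis) under TMM scaling, the TPM as deposited, quantile normalization and removal of GC content and length trends, with the median of all tested genes as a dotted line in the same colour. The deposited TPM move every gene down with the median gene (-0.34), and Gas5 and Snhg12 stay the highest of the 9 under each scaling.

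Ratios between genes of the same library do not depend on how libraries are scaled. The pairs were chosen with their values known, so they are given as a description. The ratio of Gas5 to Snhg20 was 3.45, 4.2, 4.10 and 4.23 in control saline, 4.91, 4.80, 4.99 and 5.77 in cKO saline, 7, 10.2, 8.42 and 12.2 with cocaine under the control label, and 11.0 and 6.56 with cocaine under the cKO label. No cocaine library reached down to the saline values. The ratio of Snhg12 to Snhg3, both on chromosome 4, was 1.17 to 1.96 over the saline and 2.29 to 3.21 over the cocaine libraries, again without overlap. Gas5 relative to the abundant Snhg11 was 0.339 to 0.568 and 0.553 to 0.801, with 1 library of each kind in the shared range.

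**Figure D4:**
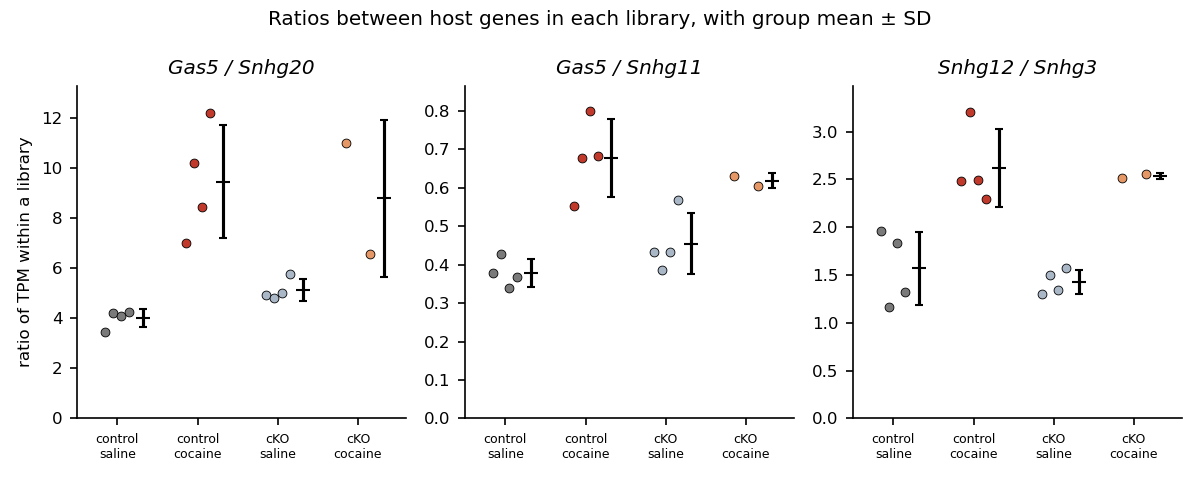
Ratio of the TPM of 2 host genes within each library (y axis, from 0) by group (x axis), with group mean and SD, for Gas5 to Snhg20, Gas5 to Snhg11 and Snhg12 to Snhg3. Saline libraries reach at most 5.77, 0.568 and 1.96, and cocaine libraries start at 6.56, 0.553 and 2.29.

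As a share of the summed scaled TPM of the 9 genes, Gas5 took 16.9% to 23.7% of the total in saline libraries and 24.3% to 30.1% in cocaine libraries. Snhg11 took 41.7% to 49.7% and 37.5% to 43.9%. The summed level of the 9 genes was 341.9 to 412.2 over all libraries and overlapped between the treatments, from 341.9 in control saline replicate 1 to 410.1 in control cocaine replicate 1.

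The genotype comparisons asked whether loss of Maged1 in Vglut2 neurons moved the host genes. After saline, 0 of 9 passed against a background of 0.178% of genes, with log2 differences, cKO minus control, from -0.21 (Snhg20) to 0.20 (Snhg6), and 0 had an unadjusted p under 0.05. After cocaine, between the libraries labelled cKO and control, 0 of 9 passed against 0.0594%, with differences from -0.06 to 0.18, and 0 had an unadjusted p under 0.05. Ranges of Snhg20 did not overlap after saline, at 14.1 to 15.5 scaled TPM in cKO and 16.8 to 19.0 in control. Limma used a spread shared by all 4 groups, and Snhg20 varied more in the cocaine groups. Ranges of Snhg14 did not overlap after cocaine, at 64.0 to 67.4 in the 2 libraries of the cKO label and 53.1 to 63.1 under the control label. Neither difference passed (adjusted p = 0.538 for Snhg20 and 0.497 for Snhg14, limma). How many of all genes separate in this way was not counted, so these ranges are given as a description only. The 95% confidence intervals of the single genes ran from -0.55 at the lowest to 0.43 at the highest after saline, and from -0.40 to 0.55 after cocaine. For the interaction of genotype and treatment 0 of 9 passed in limma, against 1.28% of genes. The smallest adjusted p was 0.246, for Snhg14, whose interaction of 0.27 (SE 0.12) was the 1 of 9 with an unadjusted p under 0.05. All 3 comparisons draw on the genotype labels. Maged1 contradicts these in the cocaine libraries and follows the titles in the saline libraries, where 4 tags disagree with the titles.

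The hosted snoRNAs could be followed only in part, since 10 symbols of the 238 annotated snoRNA genes inside the 9 hosts have a row. Of these, Snord47 (in Gas5), Snora61 and Snord99 (in Snhg12), Snord87 (in Snhg6) and Snora24 (in Snhg8) were listed at 0 in all 14 libraries. Snord22 (in Snhg1), Snora16a and Snora44 (in Snhg12), and Gm22496 and Snord116l2 (in Snhg14) were tested. Among all 118 rows named as snoRNAs or scaRNAs, 51 were likewise at 0 in every library, so these zeros say only that the genes are listed at 0. Below are Snora44, the row that moved, with Snora61 and Snord99 from the same host, as GENCODE M21 transcripts. Capitals mark the ACA triplet 3 bases from the end in Snora61, and the C box (TGATGA) and D box (CTGA) in Snord99. No ACA was found in the last bases of the annotated Snora44.
Snora44, chr4:132309941-132310069, plus strand: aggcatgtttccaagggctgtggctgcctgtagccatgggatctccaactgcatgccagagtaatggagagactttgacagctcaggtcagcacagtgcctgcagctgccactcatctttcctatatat
Snora61, chr4:132310240-132310369, plus strand: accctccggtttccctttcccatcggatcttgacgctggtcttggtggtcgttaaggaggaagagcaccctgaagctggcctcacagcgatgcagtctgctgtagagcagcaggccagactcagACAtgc
Snord99, chr4:132310691-132310764, plus strand: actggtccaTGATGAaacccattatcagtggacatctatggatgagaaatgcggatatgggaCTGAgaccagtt

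Snora44 measured 146, 106, 62.9 and 96.5 scaled TPM in control saline and 49.2, 45.0, 48.6 and 56.5 in cKO saline. With cocaine, the control label gave 53.7, 51.4, 51.9 and 39.8 and the cKO label 42.2 and 39.2. Control saline stood above all other groups, and the cocaine libraries of each label were below its saline libraries. The log2 fold change was -1.0 in the control label (SE 0.19, adjusted p = 0.00299, limma), -0.29 in the cKO label (SE 0.24, adjusted p = 0.424, limma) and -0.65 on average (SE 0.15, adjusted p = 0.00597, limma). Both falls passed with each library left out in turn, and the averaged fall was also called on the TPM as deposited (-1.02) and with GC content and length trends removed (-0.50). Between saline groups it was lower in cKO by -0.98 (adjusted p = 0.0574, limma), which passed only without control saline replicate 3.

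Snora44 fell where its host Snhg12 rose, in the control label and on average. Its annotated span lies inside an exon of at least 1 Snhg12 transcript, so reads may be shared between the rows. The same holds for Snord22 in Snhg1 and for Snora16a in Snhg12. Snora16a, from the same host, measured 7.87 to 34.2 scaled TPM in saline and 4.09 to 29.2 in cocaine libraries, and did not pass (averaged log2 fold change -0.57, SE 0.43, adjusted p = 0.344, limma). Its symbol stands for 2 annotated genes at almost the same place.

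**Figure D5:**
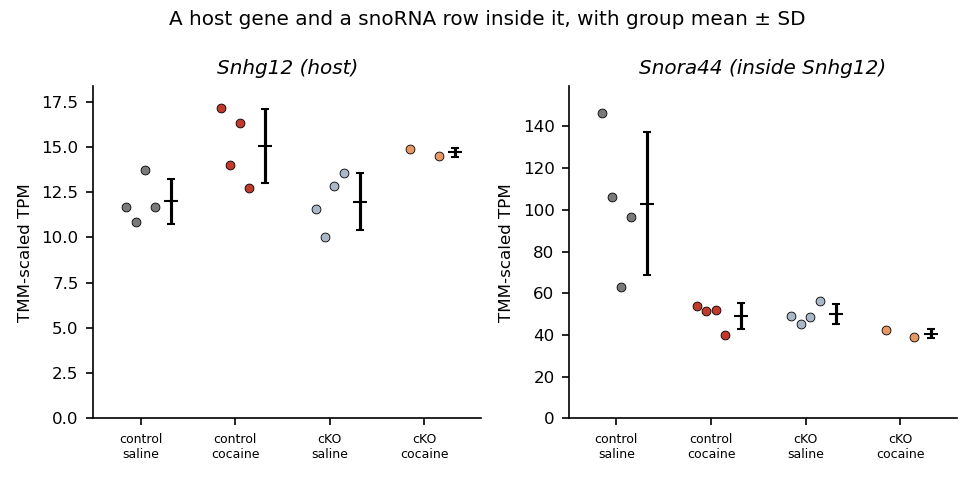
TMM-scaled TPM (y axes, from 0) of Snhg12 and of Snora44, annotated inside it, in each library (points) by group (x axis), with group mean and SD. Snhg12 is high in the cocaine groups (12.7 to 17.1), and Snora44 is high in control saline (62.9 to 146) and lower in the other groups (39.1 to 56.5).

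Of the other hosted rows, Snord22 measured 28.6 to 156 scaled TPM in saline and 54.3 to 264 in cocaine libraries, with an averaged log2 fold change of 0.11 (SE 0.35, adjusted p = 0.849, limma). Snord116l2 ran from 13.7 to 1590 in saline and from 217 to 472 in cocaine libraries. In saline, 3 libraries were at 587 or more and the other 5 at 21.6 or less, with both kinds in each label, and the averaged value of 2.14 (SE 1.22) did not pass (adjusted p = 0.201, limma). Gm22496 ran from 0.366 to 108 in saline and from 0 to 17.0 in cocaine libraries. Its averaged 95% confidence interval ran from -1.58 to 3.6, and with an SE of 1.20 only very large changes of this row were detectable.

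Other host lncRNAs, from a list of 12 of which 11 were tested, gave no rise. On average Snhg4, Snhg10, Zfas1 and Dancr fell and 7 did not pass, where 15.3% of all genes fell, with a median log2 fold change of -0.13. Snhg4 had 3.72 to 5.23 scaled TPM in saline and 2.46 to 3.71 in cocaine libraries, all lower, and fell by a log2 fold change of -0.37 (SE 0.09, adjusted p = 0.0059, limma). Dancr, a host of snoRNAs that is known to restrain differentiation of progenitor cells, fell by -0.41 (SE 0.09, adjusted p = 0.00437, limma). Zfas1, the antisense host beside Znfx1, fell by -0.26 (SE 0.07, adjusted p = 0.0082, limma). Within the labels 2 of 11 fell in each, Snhg4 and Dancr in control and Snhg10 and Zfas1 in cKO. Over all genes 10.2% fell in control and 9.96% in cKO. Averaged calls of Snhg10 and Zfas1 were lost without cKO cocaine replicate 2 (adjusted p = 0.0676 and 0.0565, limma).

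Protein-coding hosts were tested as 35 genes, mostly of ribosomal proteins and translation factors. On average 13 rose and 3 fell, where 17.8% of all genes rose and 15.3% fell, with a median log2 fold change of 0.06. Eef2, the elongation factor that moves the ribosome along, had 263 to 282 scaled TPM in saline and 288 to 330 in cocaine libraries and rose by 0.20 (SE 0.03, adjusted p = 0.000529, limma). Ncl, Hspa8 and 8 ribosomal protein genes were also among the 13. Eif4a2, a translation initiation helicase, had 140 to 160 in saline and 118 to 126 in cocaine libraries and fell by -0.34 (SE 0.03, adjusted p = 7.45e-06, limma). Within the labels 9 rose and 2 fell in control (all genes 14.2% and 10.2%), and 8 rose and 4 fell in cKO (all genes 10.2% and 9.96%). With quantile normalization the averaged split was 7 higher and 6 lower, and on the TPM as deposited 0 higher and 31 lower.

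Of 19 tested genes for proteins that assemble on snoRNAs, 5 rose on average (Fbl, Gar1, Nolc1, Ruvbl2 and Pih1d1) and 0 fell, against 17.8% and 15.3% of all genes, with 1 lower under quantile or median-of-ratios scaling and 16 lower on the TPM as deposited. Fbl, which encodes the methyltransferase fibrillarin of C/D particles, had 11.3 to 13.9 scaled TPM in saline and 14.2 to 15.6 in cocaine libraries (log2 fold change 0.27, SE 0.04, adjusted p = 0.000137, limma). Gar1, a core protein of H/ACA particles, had 2.81 to 3.52 and 4.50 to 5.85 (0.60, SE 0.06, adjusted p = 2.42e-05, limma). Neither range overlapped. On the TPM as deposited Gar1 was still higher (0.26, adjusted p = 0.00792, limma), and Fbl had -0.10. Within the labels 3 rose in control and 4 in cKO, where 14.2% and 10.2% of all genes rose.

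Factors of nonsense-mediated decay, which degrades several spliced host RNAs, were tested as 14 genes. On average 6 rose, Upf1, Upf3a and Upf3b among them, and 1 fell, against 17.8% and 15.3% of all genes, with a median of 0.09. Upf1, the helicase of the pathway, had 13.8 to 15.7 scaled TPM in saline and 16.4 to 17.7 in cocaine libraries (log2 fold change 0.19, SE 0.03, adjusted p = 0.000729, limma). Smg1, the kinase that phosphorylates the Upf1 protein, fell by -0.21 (SE 0.03, adjusted p = 0.000451, limma). Within the labels 6 rose and 1 fell in control (all genes 14.2% and 10.2%), and 4 rose and 1 fell in cKO (all genes 10.2% and 9.96%). With the 10 libraries whose titles and tags agree, 2 rose and 0 fell in control, where 7.62% of all genes were called. In cKO 0 were called with those libraries, where 5.61% of all genes were, and on average 4 rose and 1 fell, where 17.3% were. On average 0 were higher and 12 lower on the TPM as deposited, and 2 higher and 1 lower with GC content and length trends removed.

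By pattern over the 14 libraries, the genes most like a member were named by the Pearson correlation of log2 scaled TPM, which the treatment difference feeds. Nearest to Gas5 were Dynlrb1, St13 and Sp2, each at r = 0.96. Nearest to Snhg20 were Gm27021 (0.90), Hbp1 (0.90) and A830082N09Rik (0.89), and nearest to Snhg3 were Crebrf (0.91), Thoc2 (0.90) and Clock (0.90). Among members, Snhg11 was the second nearest to Snhg14, at 0.82. Nearest to Snhg12 was Hmgb1 (0.86), to Snhg1 Dgki (0.87), to Snhg6 Elavl4 (0.85) and to Snhg8 Cwc25 (0.90).

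Markers of the dissected tissue moved beside these results. Over all genes, 14.2% rose and 10.2% fell in the control label, 10.2% and 9.96% in cKO, and 17.8% and 15.3% on average. Slc17a6, the Vglut2 gene, had 69.3 to 104 scaled TPM over all libraries and Tcf7l2, a marker of thalamic neurons, 73.9 to 124, as thalamic tissue should hold. Of the 4 thalamic glutamatergic genes, Tcf7l2 (0.30, adjusted p = 0.0303, limma) and Lef1 (0.44, adjusted p = 0.0109, limma) rose on average. Calb2 fell in the control label, from a mean of 128 to 80.8 scaled TPM, and rose in the cKO label, from 69.1 to 128, with 0.13 on average (adjusted p = 0.576, limma). The summed level of 5 neuronal markers was 862 to 969 in control saline and 963 to 1150 in the libraries labelled control cocaine, where 3 of the 5 rose (on average 2 rose, with 1 higher and 1 lower under quantile normalization and 4 lower on the TPM as deposited), and 985 to 1080 and 1000 to 1060 in the cKO groups, where 2 rose. For 5 oligodendrocyte markers it was 1230 to 1470 and 1340 to 2060, then 1510 to 2120 and 1600 to 1620, with 1 rise, Mbp in control. For 6 hypothalamic peptide genes it ran from 133 to 465 for control saline and from 2.53 to 127 for control cocaine, where 4 of 6 fell. It ran from 9.81 to 146 for cKO saline and from 34.1 to 74.0 for cKO cocaine, where 0 fell, and Oxt and Hcrt were each listed at 0 in 3 libraries. On average 3 of the 6 fell (Oxt, Avp and Gal), and the list's medians were -1.72 in control, 0.30 in cKO and -1.09 on average. For 5 genes of motile cilia the medians were -0.61, 0.97 and 0.08, with 1 rise (Rsph1 in cKO), and for 4 habenular genes -0.41, 0.92 and 0.27, with 0 calls in limma. Among 5 astrocyte genes Aldh1l1 rose in all 3 contrasts, Slc1a3 fell in control and Aqp4 fell on average, with sums of 148 to 183 over all libraries. Of 5 microglial genes 0 were called, and of 4 endothelial genes Cldn5 fell in cKO and on average. Of 4 choroid plexus genes, 1 was tested, and Folr1 and Kcne2 were listed at 0 in 1 and 2 libraries, while the sum reached 1440 in 1 control saline library and 41.2 at most in cKO saline. The part of these cells in the host gene results was not tested.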

How the data were processed

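The authors mapped paired reads to GRCm38.p4 (mm10) with STAR 2.5.3a, quantified transcripts with Salmon against an Ensembl annotation and summarized them per gene. The deposited unit is TPM, which is corrected for length and keeps no depth, so counting error is unknown. In 2 tables the deposited TPM are written with a decimal comma. Listed genes sum to 312659 to 377401 TPM. Coordinates come from GENCODE M21 or RefSeq on GRCm38, not from the authors' annotation.

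TPM were scaled by unweighted TMM (30% of log ratios and 5% of means trimmed; factors 0.807 to 0.9385 in cocaine and 1.068 to 1.216 in saline libraries), and log2 was taken after adding 0.5, which understates changes of low genes. Genes reaching 1 TPM in 3 or more libraries entered limma 3.58.1 (R 4.3.3) with an intensity trend, a means model of the 4 groups and Benjamini-Hochberg adjustment. Summaries used Python 3.11.15 with pandas 2.3.3. The fit was tested on simulated data in which each gene had the same spread in all groups. Of 200 genes changed by 1 log2 unit, 192 were recovered, with 11 false calls. Smaller changes, like those of the members, and unequal spreads were not simulated. The series text calls replicates independent biological replicates and does not say whether animals were pooled.

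Named genes are the 9 members, their hosted snoRNAs with rows, and fixed lists of other hosts, snoRNP, decay, imprinted and marker genes, of which examples were picked after their values were seen. The members and lists were chosen with earlier results of these data known. Alternatives were other scalings, pseudocounts, filters, samples, labels, a replicate block, GC and length correction, a fold minimum and each library left out.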

Additional observations from a re-analysis of the deposited data

Results flagged for a closer look

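In 2 of the 27 member and group combinations with 4 libraries, 1 library stood apart from the other 3 by more than Dixon's 95% critical value for the ratio of gap to range. Chance flags about 1 in 20 groups. Gas5 measured 81.2 scaled TPM in cKO saline replicate 4, against 74.7 to 75.5 in the other 3 libraries of that group (ratio 0.874), and it was still below every cocaine library. Snhg20 measured 19.0 scaled TPM in control saline replicate 2, against 16.8 to 17.0 in the other 3 (ratio 0.899). Without that library the fall of Snhg20 in the control label still passed.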

How the results depend on the processing

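The counts of members passing limma at an adjusted p of 0.05 were 3 in the control label, 1 in the cKO label and 5 on average. In the same fit 24.4%, 20.2% and 33.1% of all genes were called. On the TPM as deposited they were 6, 6 and 7, where 71.5%, 61.1% and 80% of all genes were called. With the 10 libraries whose titles and tags agree they were 1 (Gas5), 0 and 1 (Gas5), where 7.62%, 5.61% and 17.3% were called. Removal of GC content and length trends lost 2 member calls and gained 2 over the 3 contrasts. There 18.2%, 8.66% and 19.5% of all genes were called. Requiring an absolute log2 fold change of 0.5 left 2 (Gas5 and Snhg20), 0 and 0. The share of all genes under that rule was not counted, so these counts cannot be set against a background. Fitting only the groups compared gave 2 in the cKO label, where 15.8% of all genes were called. With a replicate block the cKO count was also 2, with Snhg1 added, where 14.6% of all genes were called. The replicate numbers do not pair the libraries: deviations of same-numbered libraries had a mean correlation of -0.014 (-0.165 to 0.103), against 0.005 for other pairs. Leaving out 1 library gave 2 to 5 in the control label, where 18.3% to 27.6% of all genes were called. In the cKO label it gave 0 to 2 (0 without cKO cocaine replicate 1 and 2 without cKO saline replicate 2), where 5.76% to 17.8% were called. On average it gave 2 to 5 (2 without either cKO cocaine library), where 21.5% to 35.2% were called. For the genotype comparisons and the interaction it gave 0 throughout.

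Some signs turned, including those of called rises of Snhg12. On the TPM as deposited, Snhg6 was -0.18 and Snhg12 -0.05 in the control label, Snhg8 -0.19, Snhg12 -0.09 and Snhg14 -0.31 in the cKO label, and Snhg6 -0.31, Snhg8 -0.31 and Snhg12 -0.07 on average, with a median of -0.34 over all genes. With GC content and length trends removed, Snhg8 was 0.04 in the control label, Snhg6 0.08 and Snhg11 0.05 in the cKO label, and Snhg14 0.09 on average. With the 10 libraries, Snhg6 was 0.01 and Snhg11 0.07 in the cKO label and Snhg14 0.01 on average, and with genotype by tag Snhg6 was 0.08 in the cKO label. Leaving out 1 library moved Snhg6 from -0.28 to 0.13, Snhg11 from -0.12 to 0.02 and Snhg20 from -0.62 to 0.01 in the cKO label, and Snhg6 from -0.05 to 0.16 on average. The cause was not tested. TPM keep no depth, so the counting error of low members is unknown.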
